A study of Mus musculus with 14 samples.

Results

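The genes described here are 39 genes of the NRF2, glutathione and antioxidant systems, taken from the tables by their symbols. No measured value enters that rule, though the set was drawn up with earlier results of these data known. All 39 were among the 24346 genes of the deposited tables, and 37 were among the 13130 genes with enough reads to test. The 14 libraries hold polyadenylated RNA of MC3T3-E1 cells, an established mouse preosteoblast line. The labels give 2 genotypes, MACF1 knockdown and Control, each at days 0, 3, 5 and 10. Each group of days 0, 3 and 5 holds 2 libraries, and each of day 10 holds 1. MACF1 is a giant crosslinker of the actin and microtubule networks, and the series asks about its part in osteoblast differentiation. The titles of the knockdown libraries carry "sh" and those of the control libraries "NC". The sources used here do not give the sequence used for the knockdown, whether the cells were 1 clone or a pool, or the event that marks day 0. The pairs are called biological replicates, but no source says that they came from separate cultures, so the p-values reflect only how far these libraries spread, and that spread may be technical.

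NRF2 is a transcription factor that KEAP1 holds at low abundance by handing it to a ubiquitin ligase. When oxidants or electrophiles modify cysteines of KEAP1, NRF2 builds up and binds antioxidant response elements near genes for glutathione synthesis, thioredoxin recycling, detoxification, iron storage and NADPH supply. In bone, oxidant load is known to restrain osteoblast formation, and loss or excess of NRF2 activity in mice alters bone mass.

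Macf1 itself was read first as a check of the labels. It ranged from 129 to 181 CPM (counts scaled to a common library size) in the libraries labelled knockdown and from 55.2 to 205 CPM in control. Averaged over days 0, 3 and 5 its log2 difference stood at 0.13 (SE 0.24, adjusted p = 0.724), and at −0.08 without control day 3 replicate 2, the library with 55.2 CPM. At day 10, with 1 library per condition, Macf1 had 129 CPM under the knockdown label and 196 CPM in control. No fall of the targeted transcript was thus detected over days 0, 3 and 5. Each direction given refers to the label and not to a measured loss of Macf1. Libraries held 13096527 to 23301514 counts under the knockdown label and 8044687 to 20124104 in control. Control day 3 replicate 2 stood apart: it had the fewest counts, 17.8% of them on ribosomal protein genes against 5.29% to 10.4% in the other 13 libraries, and its log2 CPM correlated with its replicate at 0.928 across genes, where the other pairs reached 0.993 to 0.994. Of 36 antioxidant genes compared in that pair, 4 (Gclc, Cat, Nfe2l2 and Gclm) stood below 0.5 times the level in its replicate and 19 above 1.5 times. The main counts over the whole group are therefore also given without that library, and the counts by role are not. That fit leaves 1 control library at day 3. All 8 osteoblast markers reached 1 CPM in at least 1 library of each condition, with sums of 11912 to 20908 CPM in the libraries labelled knockdown and 12416 to 27119 CPM in control. Over the 14 libraries Alpl ranged from 0.209 to 156 CPM, Ibsp from 1.47 to 8394 and Bglap from 0 to 27.1. Runx2 ranged from 47.4 to 181 CPM, Sp7 from 31.5 to 126 and Spp1 from 599 to 7370. Col1a1 ranged from 2561 to 7200 CPM and Col1a2 from 5065 to 9224. The adipocyte markers measured, Adipoq and Fabp4, stayed under 1 CPM in every library. Plin1, Lep, Cidec, Epcam and Myod1 were not found by symbol among the genes measured. Summed epithelial markers, nearly all Cdh1, were 1.92 to 8.49 CPM in the libraries labelled knockdown and 0.0779 to 1.39 CPM in control, and summed muscle markers, nearly all Des, were 4.10 to 11.4 CPM in the libraries labelled knockdown and 1.03 to 4.26 CPM in control. Of 6 macrophage and osteoclast markers only Ctsk reached 1 CPM, and of 3 chondrocyte markers Sox9 and Col2a1 did, with sums of 211 to 343 CPM in the libraries labelled knockdown and 147 to 369 CPM in control. Among 4 endothelial markers Pecam1 reached 1 CPM under the knockdown label, with sums up to 2.38 CPM there and up to 0.718 CPM in control; their part in the results was not tested.

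Averaged over days 0, 3 and 5, 13 of the 37 tested antioxidant genes differed between the libraries labelled knockdown and control, 8 of them higher and 5 lower. The higher genes were Nqo1, Sod3, Gsto1, Gstm1, Fth1, Abcc1, Gsta4 and Srxn1, and the lower ones Prdx6, Keap1, Tkt, Gpx8 and Gsr. A gene is counted when its p from the quasi-likelihood test of edgeR, adjusted by Benjamini-Hochberg over all 13130 genes, is under 0.05. Of all genes tested 26.9% passed, 15% higher and 11.9% lower, and the median log2 fold change was 0.07 over the antioxidant genes and 0.00 over all genes. The genes thus moved in both directions, and the median gene of the group moved little. Without control day 3 replicate 2 the count was 25 of 37, 18 higher and 7 lower, beside 47.1% of all genes (24.9% higher and 22.2% lower), and the median was 0.20. In bulk RNA, fewer cells that express a gene and less of its RNA per cell cannot be told apart.

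Of the sensor and its transcription factor, Keap1 passed and Nfe2l2 did not. Keap1 (ENSMUSG00000003308.12, minus strand of chromosome 9, 21229730 to 21239361, GRCm38), which encodes the adaptor that recognises NRF2, had 67.4 and 63.1 CPM in libraries labelled knockdown and 92.0 and 88.9 CPM in control at day 0, and 62.3 and 55.6 under the knockdown label against 79.3 and 146 CPM in control at day 3. Day 5 gave 58.5 and 49.4 under the knockdown label against 88.0 and 82.3 CPM in control, and day 10 gave 63.3 under the knockdown label against 95.1 CPM in control. Every library labelled knockdown lay below every control library of its day, and the highest control value came from day 3 replicate 2. Over the 3 days Keap1 differed by −0.69 (SE 0.15, adjusted p = 0.00741) in log2 units, and −0.52 (adjusted p = 5.33e-05) without that library. Reads of an antisense gene that covers 510 of the 4693 exon bases of Keap1 may enter its counts, since the strand setting of the counting is not given.

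Nfe2l2, which encodes NRF2, had 156 and 157 CPM in the libraries labelled knockdown and 158 and 153 CPM in control at day 0, 147 and 164 under the knockdown label against 159 and 57.6 CPM in control at day 3, and 157 and 158 under the knockdown label against 183 and 186 CPM in control at day 5. At day 10 it stood at 207 CPM in the library labelled knockdown and 243 CPM in control. The groups overlapped at days 0 and 3, and the low value at day 3 was that of replicate 2 of control. Averaged over days 0, 3 and 5 its log2 fold change stood at 0.10 (95% interval −0.35 to 0.55, adjusted p = 0.754) and turned to −0.09 (adjusted p = 0.198) without that library. NRF2 is regulated mainly as a protein, which these libraries do not measure.

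Nqo1 showed the largest difference of the group. The gene (ENSMUSG00000003849.8, minus strand of chromosome 8, 107388225 to 107403206, GRCm38) encodes a quinone reductase that is a standard NRF2 target. It had 171 and 177 CPM in libraries labelled knockdown and 30.0 and 29.7 CPM in control at day 0, and 57.6 and 62.4 under the knockdown label against 8.68 and 12.3 CPM in control at day 3. On day 5 the gene had 41.6 and 46.3 under the knockdown label against 10.8 and 10.3 CPM in control, and at day 10 57.7 under the knockdown label against 21.0 CPM in control. The groups were far apart at each day, and even the lowest library labelled knockdown lay above the highest control library of any day. Over the 3 days Nqo1 rose by 2.38 (SE 0.11, adjusted p = 6.78e-07) in log2 units, with 2.54, 2.53 and 2.06 at days 0, 3 and 5. Both conditions had their highest Nqo1 at day 0.

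Fth1 (ENSMUSG00000024661.6, plus strand of chromosome 19, 9980598 to 9985098, GRCm38), the heavy chain of ferritin that oxidises iron for storage, was the most abundant of the group. It took 3549 and 3774 CPM in the libraries labelled knockdown and 2966 and 2799 CPM in control at day 0, and 2232 and 2436 under the knockdown label against 1182 and 2041 CPM in control at day 3. At day 5 it measured 1984 and 2231 under the knockdown label against 825 and 793 CPM in control and at day 10 3063 under the knockdown label against 1511 CPM in control. The groups did not overlap on any day, and as a ratio the gap was widest at day 5. Fth1 rose by a log2 fold change of 0.75, with SE 0.14 and adjusted p = 0.00423. Together the 39 genes took 0.535% to 0.832% of the counts in the libraries labelled knockdown and 0.390% to 0.667% in control, of which Fth1 alone took 0.202% to 0.392% in the libraries labelled knockdown and 0.0808% to 0.289% in control.

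The other genes of haem and iron handling did not pass. Hmox1, the inducible haem oxygenase and another standard NRF2 target, had an averaged log2 fold change of −0.07 (95% interval −0.37 to 0.23, adjusted p = 0.741). Its values ran 43.1 and 41.9 CPM under the knockdown label against 30.0 and 34.4 CPM in control at day 0 and 13.3 and 16.2 under the knockdown label against 18.8 and 17.5 CPM in control at day 5. Those under the knockdown label thus lay above control at day 0 and below it at day 5. Ftl1, the ferritin light chain, stood at −0.03 (adjusted p = 0.942) and at 0.27 (adjusted p = 0.0185) without control day 3 replicate 2. Its counts are uncertain, since 78.9% of the 50-base stretches of its transcript also occur in other genes, among them Ftl1-ps1 and Ftl2-ps.

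Promoters are shown for 5 genes, to set the letters of the antioxidant response element beside the differences: Srxn1, Nqo1 and Gsto1, which were higher in the libraries labelled knockdown, and Prdx1 and Me1, which hold TGACTCAGC and did not pass. Each window is from RefSeq (GRCm38.p6), 300 bases from 250 before to 50 after the annotated start, 5′ to 3′ on the gene's strand. Capitals mark matches on either strand to the core TGACNNNGC, of which TGACTCAGC is one form, or to the related TGAGTCAGC, a form chosen after the windows were seen; the windows shown hold no overlapping matches. The windows are at chr2:152105274-152105573, plus strand (Srxn1), chr8:107403156-107403455, minus strand (Nqo1), chr19:47854723-47855022, plus strand (Gsto1), chr4:116685349-116685648, plus strand (Prdx1) and chr9:86695865-86696164, minus strand (Me1).
Srxn1: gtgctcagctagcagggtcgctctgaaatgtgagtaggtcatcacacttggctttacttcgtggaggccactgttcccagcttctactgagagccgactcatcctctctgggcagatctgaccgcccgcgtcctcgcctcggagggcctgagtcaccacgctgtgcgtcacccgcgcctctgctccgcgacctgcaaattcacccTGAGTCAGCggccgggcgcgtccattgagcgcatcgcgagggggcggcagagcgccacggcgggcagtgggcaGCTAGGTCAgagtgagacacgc
Nqo1: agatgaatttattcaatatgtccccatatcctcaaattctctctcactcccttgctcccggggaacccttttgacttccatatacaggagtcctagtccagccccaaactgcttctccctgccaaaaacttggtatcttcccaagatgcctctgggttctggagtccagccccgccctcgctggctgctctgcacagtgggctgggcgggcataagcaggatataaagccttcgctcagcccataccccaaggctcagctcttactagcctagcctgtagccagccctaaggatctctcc
Gsto1: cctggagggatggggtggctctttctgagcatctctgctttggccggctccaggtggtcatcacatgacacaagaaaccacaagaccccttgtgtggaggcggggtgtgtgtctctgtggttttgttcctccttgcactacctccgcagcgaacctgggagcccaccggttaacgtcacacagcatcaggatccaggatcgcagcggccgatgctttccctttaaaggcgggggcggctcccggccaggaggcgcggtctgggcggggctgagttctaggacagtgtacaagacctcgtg
Prdx1: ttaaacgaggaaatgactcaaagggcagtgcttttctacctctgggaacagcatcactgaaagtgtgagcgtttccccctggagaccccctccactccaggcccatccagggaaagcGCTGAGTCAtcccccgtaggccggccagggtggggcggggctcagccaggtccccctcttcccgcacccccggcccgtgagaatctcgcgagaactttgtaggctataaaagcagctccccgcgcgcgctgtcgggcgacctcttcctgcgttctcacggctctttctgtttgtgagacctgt
Me1: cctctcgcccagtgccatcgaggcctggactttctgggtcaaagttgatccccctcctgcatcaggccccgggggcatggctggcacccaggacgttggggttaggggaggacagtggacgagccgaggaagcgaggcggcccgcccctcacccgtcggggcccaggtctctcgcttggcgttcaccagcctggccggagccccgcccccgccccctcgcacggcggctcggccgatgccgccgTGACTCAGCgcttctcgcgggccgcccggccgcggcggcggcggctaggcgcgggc

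RefSeq windows were matched for 32 of the 39 genes, and Hmox1, Gclc, Gsr, Gsta4, Prdx6, Sod3 and Abcc1 are named only. The core occurred in 12.4% of 32851 mouse promoter windows and in 26.2% of the 42 windows of these 32 genes, or in 11 of the genes. Of the genes with a window, it occurred in 1 of 5 that were higher (Srxn1), in 0 of 3 that were lower, in 9 of 22 that were tested and did not pass, and in 1 of 2 that were not tested (Mgst1 of Mgst1 and Gpx3). TGACTCAGC was found in 0.454% of all windows, and among these genes in Prdx1 and Me1. TGAGTCAGC was found in 0.414% of all windows, and among these genes in Srxn1 and Gstp1. A match describes the letters of the window only, and elements outside it were not searched.

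Over all libraries glutathione synthesis and recycling showed 1 lower gene of 5 and none higher, beside 11.9% and 15% of all genes. Gsr (ENSMUSG00000031584.14, plus strand of chromosome 8, 33652523 to 33698163, GRCm38), the reductase that returns oxidised glutathione to its reduced form, had 44.9 and 47.7 CPM in libraries labelled knockdown and 56.1 and 56.6 CPM in control at day 0, and 48.4 and 45.5 under the knockdown label against 63.8 and 62.1 CPM in control at day 3. Day 5 gave 44.5 and 44.2 under the knockdown label against 59.1 and 64.7 CPM in control, and day 10 gave 38.4 under the knockdown label against 45.5 CPM in control. All libraries labelled knockdown lay below control of their day, with replicates close together. Over the 3 days Gsr differed by −0.40 (SE 0.09, adjusted p = 0.00755) in log2 units, a call that did not pass with limma on RPKM or with no filter on low counts (largest adjusted p = 0.0807).

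Gclm, the modifier subunit of the enzyme that starts glutathione synthesis, lay above both control libraries at each of days 0, 3 and 5. It had 68.3 and 64.6 CPM in libraries labelled knockdown and 43.2 and 44.8 CPM in control at day 0, 58.9 and 52.8 under the knockdown label against 51.8 and 20.1 CPM in control at day 3, and 50.6 and 46.3 under the knockdown label against 38.5 and 35.2 CPM in control at day 5. Its averaged log2 fold change of 0.54 (SE 0.19) missed the threshold (adjusted p = 0.0623) and passed once the replicate number was a block (adjusted p = 0.0488) and without control day 3 replicate 2 (0.36, adjusted p = 0.000616). Gclc, the catalytic subunit of the same enzyme, had 0.24 (95% interval −0.26 to 0.74, adjusted p = 0.467) and Gss, which completes glutathione, −0.22 (−0.62 to 0.18, adjusted p = 0.388).

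Slc7a11, which imports the cystine that glutathione synthesis needs, was near the detection limit. It had 0 to 9 counts per library at days 0, 3 and 5 in both conditions, and 42 counts in the library labelled knockdown and 20 in control at day 10. It passed the filter only through those day 10 libraries, and no fold change of it is given.

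Among thioredoxin, its reductase, peroxiredoxins and Srxn1, 1 gene of 5 was higher and 1 lower over all libraries. Of all genes 15% were higher and 11.9% lower. Srxn1 (ENSMUSG00000032802.8, plus strand of chromosome 2, 152105516 to 152111376, GRCm38), which restores over-oxidised peroxiredoxins, had 72.5 and 74.6 CPM in libraries labelled knockdown and 57.5 and 58.8 CPM in control at day 0, and 52.3 and 53.4 under the knockdown label against 43.5 and 47.5 CPM in control at day 3. On day 5 the gene had 52.7 and 56.5 under the knockdown label against 36.3 and 40.0 CPM in control and at day 10 57.5 under the knockdown label against 49.2 CPM in control. Each library labelled knockdown lay above control of its day, and both conditions had their highest levels at day 0. Srxn1 rose by a log2 fold change of 0.36, with SE 0.09 and adjusted p = 0.0133, a call lost without control day 5 replicate 1 or with no filter on low counts (largest adjusted p = 0.0675).

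Prdx6 (ENSMUSG00000026701.13, minus strand of chromosome 1, 161240112 to 161251219, GRCm38), a peroxiredoxin that uses glutathione to reduce oxidised phospholipids, was lower. It had 48.2 and 59.5 CPM in libraries labelled knockdown and 76.4 and 84.1 CPM in control at day 0, and 55.3 and 64.5 under the knockdown label against 93.3 and 192 CPM in control at day 3. At day 5 it measured 54.3 and 68.2 under the knockdown label against 71.8 and 90.4 CPM in control, and at day 10 50.8 under the knockdown label against 68.2 CPM in control. The groups of each day did not overlap, but the highest value, in replicate 2 of control at day 3, was more than any other library's. Over the 3 days Prdx6 differed by −0.74 (SE 0.18, adjusted p = 0.0124) in log2 units, and −0.54 (adjusted p = 0.000599) without that library.

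Thioredoxin itself (Txn1, −0.15, adjusted p = 0.601) and its reductase (Txnrd1, 0.07, adjusted p = 0.764) did not pass, with 95% intervals of the averaged log2 fold change from −0.59 to 0.28 and from −0.25 to 0.38. Prdx1, the main cytosolic peroxiredoxin, had −0.34 (adjusted p = 0.0573) and lay below both control libraries in 5 of 6 libraries labelled knockdown. It passed with the replicate block (adjusted p = 0.0433) and without control day 3 replicate 2 (−0.24, adjusted p = 0.0113).

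Glutathione transferases join glutathione to electrophiles, and of 9 listed 8 were tested. Of these 3 were higher and 0 lower over all libraries, beside 15% and 11.9% of all genes, and 5 did not pass. Gsto1 (ENSMUSG00000025068.7, plus strand of chromosome 19, 47854970 to 47864790, GRCm38), an omega-class member that reduces thiols and dehydroascorbate, had 127 and 133 CPM in libraries labelled knockdown and 42.2 and 40.1 CPM in control at day 0, and 101 and 108 under the knockdown label against 46.1 and 58.0 CPM in control at day 3. Day 5 gave 98.8 and 95.7 under the knockdown label against 38.5 and 42.3 CPM in control and day 10 gave 105 under the knockdown label against 50.3 CPM in control. Every library labelled knockdown lay above every control library of all days. Gsto1 rose by a log2 fold change of 1.31, with SE 0.10 and adjusted p = 1.05e-05, and passed at each of days 0, 3 and 5.

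Gstm1 (ENSMUSG00000058135.10, minus strand of chromosome 3, 108012255 to 108017973, GRCm38), a mu-class transferase, had 189.6 and 174 CPM in libraries labelled knockdown and 105 and 103 CPM in control at day 0, and 104 and 94.9 under the knockdown label against 50.5 and 76.8 CPM in control at day 3. On day 5 the gene had 94.3 and 104 under the knockdown label against 31.0 and 29.8 CPM in control, and at day 10 165 under the knockdown label against 112 CPM in control. The groups did not overlap on any day, and control was lowest at day 5. Gstm1 rose by a log2 fold change of 1.05, with SE 0.12 and adjusted p = 0.000177, although 23.15% of its 50-base stretches occur in other genes, among them Gstm3, and its counts are uncertain to that extent. Its neighbours Gstm2 and Gstm5 stood at −0.13 and −0.01 in averaged log2 fold change (adjusted p = 0.611 and 0.971), with the libraries labelled knockdown below control at day 0 and above it at day 5 in both.

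Gsta4 (ENSMUSG00000032348.5, plus strand of chromosome 9, 78182774 to 78209349, GRCm38), an alpha-class transferase that clears aldehydes of lipid peroxidation, stood on different sides of control on different days. It had 55.7 and 59.9 CPM in libraries labelled knockdown and 80.3 and 77.1 CPM in control at day 0, 31.2 and 27.8 under the knockdown label against 23.1 and 39.4 CPM in control at day 3, and 28.0 and 28.9 under the knockdown label against 8.43 and 8.65 CPM in control at day 5. Both replicates under the knockdown label lay below control at day 0, between its replicates at day 3 and above it at day 5. At day 10 the library labelled knockdown held 34.4 CPM and control 31.1 CPM. Its average of 0.41 (SE 0.13, adjusted p = 0.0445) in log2 units lay between opposite values of days 0 and 5, and it passed in only 8 of 21 alternative settings.

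The remaining transferases did not pass over all libraries. Gstt1, of the theta class, had 0.69 (SE 0.32, adjusted p = 0.142) and passed with the replicate block (adjusted p = 0.0407) and without control day 3 replicate 2 (1.06, adjusted p = 0.00489). Mgst3, a microsomal member, had 0.51 (adjusted p = 0.0856), and 0.72 (adjusted p = 0.00083) without that library. Gstp1, the pi-class member, had 0.13 (adjusted p = 0.66), and 0.40 (adjusted p = 0.00158) without it, but shares 62.3% of its 50-base stretches with Gstp2 and a pseudogene. Mgst1, another microsomal member, had 0 to 2 counts in the libraries labelled knockdown and 0 to 11 in control and was left out by the filter.

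Peroxidases, catalase and superoxide dismutases gave 1 higher and 1 lower gene of 7 tested over all libraries, beside 15% and 11.9% of all genes. Sod3 (ENSMUSG00000072941.5, plus strand of chromosome 5, 52363791 to 52371418, GRCm38), the secreted dismutase of the extracellular matrix, had 44.0 and 43.5 CPM in libraries labelled knockdown and 27.8 and 26.6 CPM in control at day 0, and 73.8 and 64.1 under the knockdown label against 11.3 and 14.4 CPM in control at day 3. At day 5 it measured 70.0 and 53.1 under the knockdown label against 25.1 and 24.7 CPM in control, and at day 10 70.1 under the knockdown label against 21.2 CPM in control. The libraries labelled knockdown were higher on every day, and control had its lowest levels at day 3. Sod3 rose by a log2 fold change of 1.48, with SE 0.11 and adjusted p = 1.14e-05.

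Gpx8 (ENSMUSG00000021760.3, minus strand of chromosome 13, 113042753 to 113046410, GRCm38), a peroxidase of the endoplasmic reticulum membrane, went the other way. It had 107 and 93.2 CPM in libraries labelled knockdown and 204 and 181 CPM in control at day 0, and 135 and 125 under the knockdown label against 170.3 and 210.4 CPM in control at day 3. Day 5 gave 143 and 123 under the knockdown label against 172 and 156 CPM in control, and day 10 gave 157 under the knockdown label against 169 CPM in control. All libraries labelled knockdown lay below control of their day, with the gap widest at day 0 and narrow at day 10. Over the 3 days Gpx8 differed by −0.60 (SE 0.10, adjusted p = 0.00243) in log2 units.

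The intracellular dismutases and the other peroxidases did not pass over all libraries. Sod1 of the cytosol had −0.32 (95% interval −0.79 to 0.15, adjusted p = 0.294) and Sod2 of mitochondria 0.13 (−0.09 to 0.35, adjusted p = 0.357). Gpx1, the cytosolic peroxidase, had 0.12 (adjusted p = 0.629), Gpx4, which protects membranes from lipid peroxides, −0.05 (adjusted p = 0.893), and Cat, the peroxisomal catalase, −0.15 (adjusted p = 0.638). Without control day 3 replicate 2 these were 0.33, 0.29 and −0.34 (adjusted p = 0.000586, 0.0361 and 0.00207), and Sod2 also passed (0.20, adjusted p = 0.00689). The counts of Gpx4 and Sod1 are uncertain, sharing 61.7% and 23.1% of their 50-base stretches with other genes. Gpx3, the secreted peroxidase of plasma, had 0 to 2 counts per library and was left out by the filter.

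Of the 5 genes grouped under NADPH supply, 1 was lower and none higher over all libraries, beside 11.9% and 15% of all genes. The lower one, Tkt, does not itself make NADPH. Tkt (ENSMUSG00000021957.6, plus strand of chromosome 14, 30548359 to 30574720, GRCm38), the transketolase that links the pentose phosphate pathway to glycolysis, had 166 and 175 CPM in libraries labelled knockdown and 182 and 203 CPM in control at day 0, and 120.0 and 135 under the knockdown label against 203 and 406 CPM in control at day 3. On day 5 the gene had 125 and 126 under the knockdown label against 162 and 181 CPM in control, and at day 10 137 under the knockdown label against 151 CPM in control. The groups did not overlap on any day, and replicate 2 of control at day 3 was far above all others. Over the 3 days Tkt differed by −0.62 (SE 0.16, adjusted p = 0.0159) in log2 units, and −0.43 (adjusted p = 0.000136) without that library; leaving out knockdown day 3 replicate 1 ended the call (adjusted p = 0.0529).

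The oxidative enzymes G6pdx and Pgd, which make NADPH directly, stood at −0.07 and 0.18 in averaged log2 fold change (adjusted p = 0.632 and 0.175). Taldo1, the transaldolase, had 0.07 and Me1, the cytosolic malic enzyme, −0.10 (adjusted p = 0.797 and 0.691). G6pdx, Me1, Gss, Gclm, Gstm5 and Ftl1 share exon bases with genes of the opposite strand, so reads of those may enter their counts. Me1 also shares 26.5% of its 50-base stretches with 2 other genes, and its counts are uncertain to that extent. Without control day 3 replicate 2, Pgd and Taldo1 passed as higher (0.23 and 0.32, adjusted p = 0.00595 and 0.000751).

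Abcc1 (ENSMUSG00000023088.14, plus strand of chromosome 16, 14361558 to 14475737, GRCm38), a membrane pump that exports glutathione conjugates, had 74.6 and 80.3 CPM in libraries labelled knockdown and 66.7 and 78.4 CPM in control at day 0, and 66.9 and 65.3 under the knockdown label against 49.2 and 27.6 CPM in control at day 3. At day 5 it measured 60.0 and 64.5 under the knockdown label against 39.6 and 48.8 CPM in control, and at day 10 50.8 under the knockdown label against 57.5 CPM in control. The groups overlapped at day 0, were apart at days 3 and 5, and at day 10 the library labelled knockdown lay below control. Its average of 0.45 (SE 0.14, adjusted p = 0.0408) in log2 units did not pass with the replicate block (adjusted p = 0.0506) and passed in only 8 of 21 alternative settings.

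**Figure D1:**
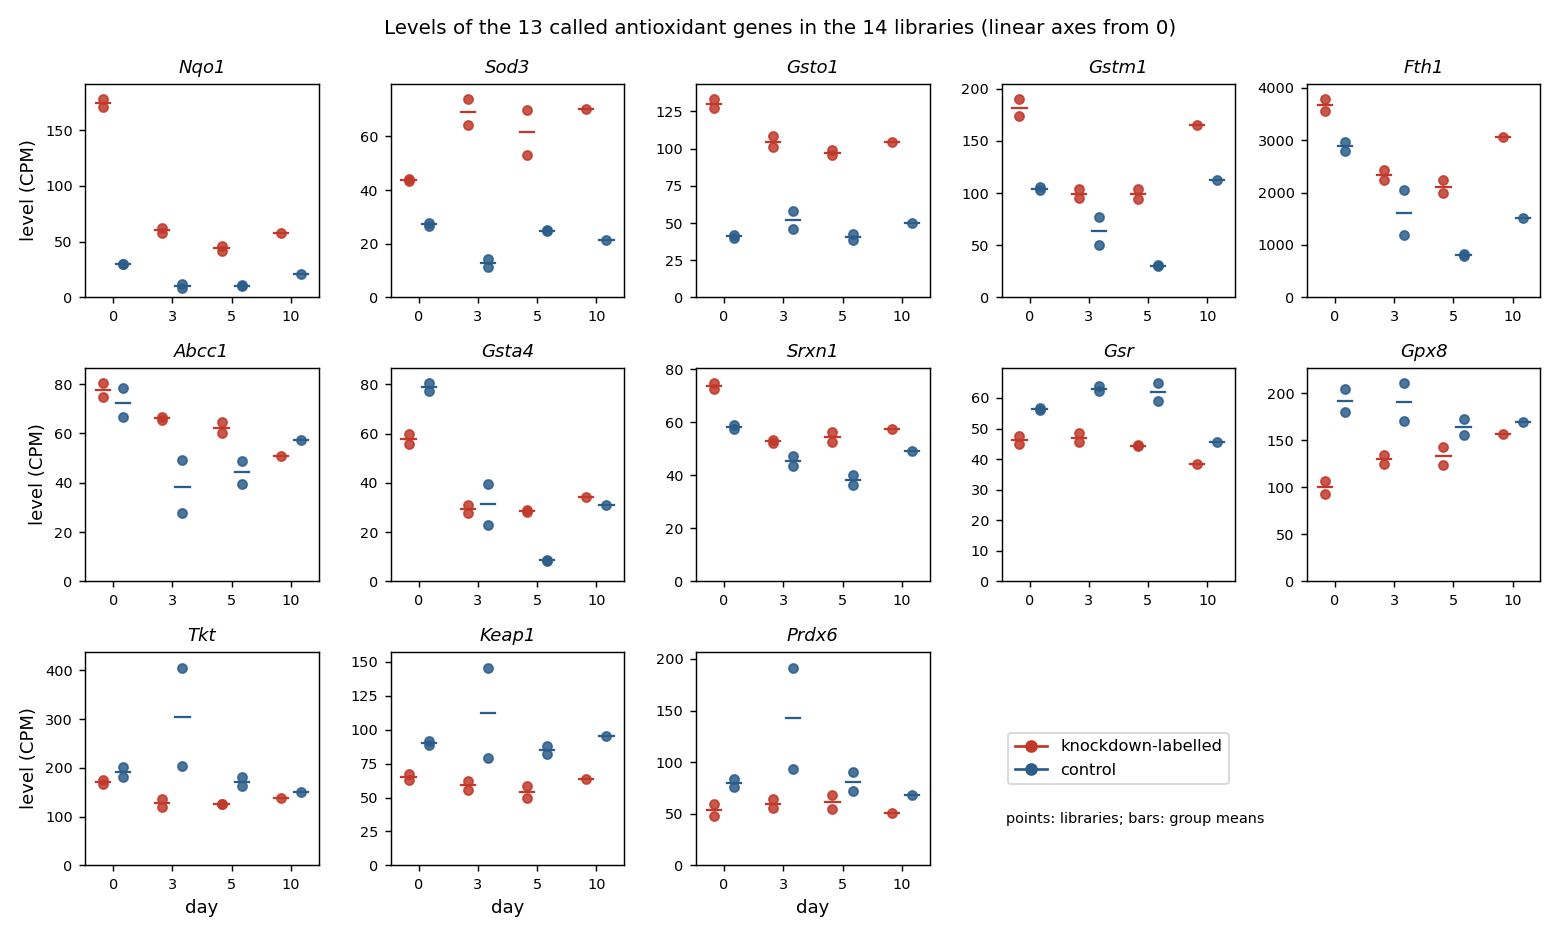
Level in CPM (vertical axes, linear from 0) by day (horizontal axes) of the 13 antioxidant genes that differed in the average over days 0, 3 and 5, in order of their fold change. Points are single libraries and bars group means, libraries labelled knockdown on the left in red and control on the right in blue; Nqo1 and Gsto1 stay apart on all days, while Gsta4 crosses between day 0 and day 5.

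Each day was also compared on its own, in the same fit, so that the days share 1 estimate of the spread. At day 0, 5 of 37 genes passed (7.09% of all genes), with Nqo1, Gsto1, Gstm1 and Pgd higher (4.41% of all genes) and Gpx8 lower (2.68%). At day 3, 6 passed (12.6% of all genes), with Nqo1, Gsto1 and Sod3 higher (7.06%) and Keap1, Prdx6 and Tkt lower (5.52%). At day 5, 6 passed (7.78% of all genes), and these 6 (Nqo1, Fth1, Gsta4, Gstm1, Gsto1 and Sod3) were higher (5.32% of all genes) and 0 lower (2.47%). Nqo1 and Gsto1 were the genes that passed at each of these days. The median log2 fold change at days 0, 3 and 5 was 0.15, −0.07 and 0.18 over the antioxidant genes and 0.03, 0.01 and 0.01 over all genes.

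At day 0 the log2 fold change of Pgd was 0.63 (SE 0.16, adjusted p = 0.0449) and that of Gpx8 −0.94 (SE 0.18, adjusted p = 0.0112). At day 3 Sod3 stood at 2.44 (SE 0.20, adjusted p = 0.000116), Prdx6 at −1.25 (SE 0.31, adjusted p = 0.0312) and Tkt at −1.25 (SE 0.28, adjusted p = 0.0208). Keap1 at day 3 stood at −0.93 (SE 0.26, adjusted p = 0.0432) and did not pass with the replicate block (adjusted p = 0.0535). Without control day 3 replicate 2 these day 3 values were smaller in size for Prdx6 (−0.64), Tkt (−0.67) and Keap1 (−0.43), and 2.61 for Sod3 (adjusted p = 0.028, 0.00238, 0.0343 and 5.08e-06). At day 5 Gsta4 had 1.74 (SE 0.24, adjusted p = 0.00163), Gstm1 1.70 (SE 0.21, adjusted p = 0.000874) and Fth1 1.38 (SE 0.25, adjusted p = 0.00874). Srxn1, Gstt1 and Me1 had 0.52, 1.64 and −0.68 at day 5 (adjusted p = 0.0684, 0.131 and 0.21) and passed with the block (adjusted p = 0.0363, 0.0354 and 0.0413).

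The fit without control day 3 replicate 2 compares 2 libraries with 1 at day 3 and takes the control spread there from other groups. The dispersion common to all genes was 0.011 in it and 0.047 with all libraries. The counts of single days rested on the control pair of day 3, whose spread enters every test. Without its replicate 2 the count at day 0 was 23, 15 higher and 8 lower, beside 28.7% of all genes (15.8% higher and 12.9% lower). At day 3 it was 11, 7 higher and 4 lower, beside 21% (11.9% higher and 9.18% lower). At day 5 it was 22, 16 higher and 6 lower (Keap1, Gss, Gsr, Cat, Tkt and Me1), beside 31.5% (16.6% higher and 14.9% lower). At day 0, leaving out any 1 of the other libraries of days 0, 3 and 5 except replicate 1 of that pair gave 2 or 3 genes in place of 5. At day 3, leaving out knockdown day 3 replicate 1 or 2 gave 3 or 2 in place of 6. Over all genes, 931 passed at day 0 and 1652 at day 3 with all libraries. The lowest counts with 1 library left out were also under these.

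A joint test asked whether the difference between conditions varied over days 0, 3 and 5. It passed for 2 of 37 genes, Gsta4 (adjusted p = 0.0222) and Sod3 (adjusted p = 0.0313), beside 0.998% of all genes. The log2 fold changes of Gsta4 were −0.45, −0.07 and 1.74 at days 0, 3 and 5, and those of Sod3 were 0.68, 2.44 and 1.31. Both calls were lost when any 1 library of days 0, 3 and 5 other than the day 3 controls was left out (adjusted p = 0.0564 to 0.183), and were kept without both day 10 libraries (adjusted p = 0.0212 and 0.0295). Without control day 3 replicate 2 they were kept (adjusted p = 1.23e-05 and 0.000723), 10 genes passed beside 8.62% of all genes, and the genes gained were Nqo1, Fth1, Gclc, Gss, Gstm1, Gstm2, Gstm5 and Pgd (for Nqo1, adjusted p = 0.0344).

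Within each condition day 5 was compared with day 0, the comparisons sharing the libraries of the tests above. In the libraries labelled knockdown 2 of 37 genes passed (2% of all genes), both lower at day 5 (1.45% of all genes were higher and 0.548% lower): Nqo1 at −1.98 (SE 0.19, adjusted p = 0.00067) and Hmox1 at −1.53 (SE 0.24, adjusted p = 0.0116). In control 6 passed (8.13% of all genes), all lower at day 5 (4.32% of all genes were higher and 3.82% lower). These were Gsta4 at −3.20 (SE 0.25, adjusted p = 6.01e-05), Fth1 at −1.83 (SE 0.26, adjusted p = 0.00206), Gstm1 at −1.77 (SE 0.21, adjusted p = 0.000773), Nqo1 at −1.50 (SE 0.19, adjusted p = 0.00111), Gstm5 at −1.03 (SE 0.25, adjusted p = 0.0357) and Srxn1 at −0.61 (SE 0.15, adjusted p = 0.0359). In the libraries labelled knockdown the same change had values of −1.02 for Gsta4, −0.80 for Fth1, −0.88 for Gstm1, −0.03 for Gstm5 and −0.43 for Srxn1 (adjusted p = 0.0525, 0.187, 0.0642, 0.988 and 0.242). Whether the conditions differ in this change was not tested on its own. The joint test above, which also takes in day 3, passed for Gsta4 of these 5. It passed for 4 of them without control day 3 replicate 2, Gsta4, Gstm1, Fth1 and Gstm5 (adjusted p = 1.23e-05, 0.00324, 0.00344 and 0.00762), and not for Srxn1 (adjusted p = 0.565).

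In both conditions the median antioxidant gene stood lower at day 5, with a median log2 fold change of −0.32 in the libraries labelled knockdown and −0.28 in control, against 0.00 over all genes in each. Gstm2 and Gstt1 in control had −0.998 and −1.92 (adjusted p = 0.0694 and 0.0777) and passed with the replicate block (adjusted p = 0.0464 and 0.0204). Without control day 3 replicate 2, 19 genes passed in the libraries labelled knockdown (2 higher and 17 lower, beside 15.6% of all genes, 8.01% higher and 7.56% lower). In control 18 passed (3 higher and 15 lower, beside 31.6% of all genes, 17% higher and 14.5% lower). In the libraries labelled knockdown the count was 1 in place of 2 without any 1 of the 4 libraries of days 0 and 5. Over all genes, 262 passed there with all libraries, and the lowest count with 1 library left out was also under that.

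**Figure D2:**
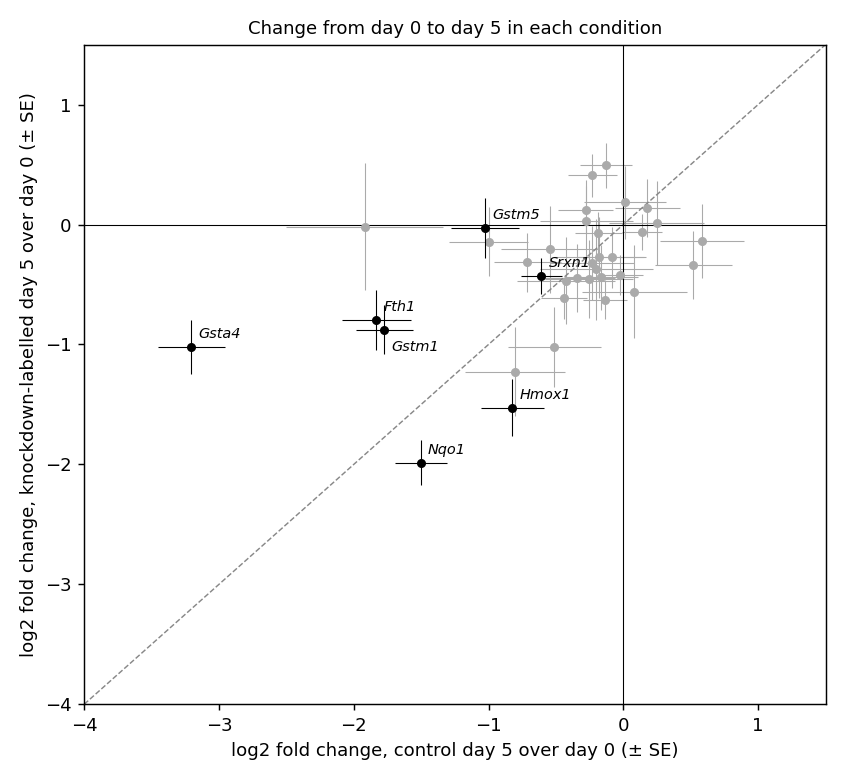
Log2 fold change of day 5 over day 0 in the libraries labelled knockdown (vertical axis) and in control (horizontal axis) for the tested antioxidant genes other than Slc7a11, with standard errors as bars. Named black points passed in at least 1 condition, the dashed line marks equal change, and Gsta4 lies furthest from it at −1.02 in the libraries labelled knockdown and −3.20 in control.

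At day 10, with 1 library per condition, differences have no replicate check and no p is given. The ratios are log2 of CPM + 0.5. Of 37 genes 5 were at least 2-fold higher in the library labelled knockdown, beside 6.05% of all genes, and 0 were at least 2-fold lower, beside 2.81%; in either direction 8.86% of all genes passed that size. The 5 higher genes were Sod3 at 1.70, Gstt1 at 1.68 (107 counts in the library labelled knockdown and 31 in control), Nqo1 at 1.44, Gsto1 at 1.05 and Fth1 at 1.02. The genes with the most negative ratios were Gclc at −0.80 (20.3 CPM in the library labelled knockdown and 35.7 CPM in control) and Keap1 at −0.58. In all 24 genes were higher and 13 lower, with a median of 0.18 against −0.01 over all genes. The share of all genes on either side of 0 was not counted. The higher genes include Slc7a11 (42 and 20 counts), which passed the filter only through these libraries.

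**Figure D3:**
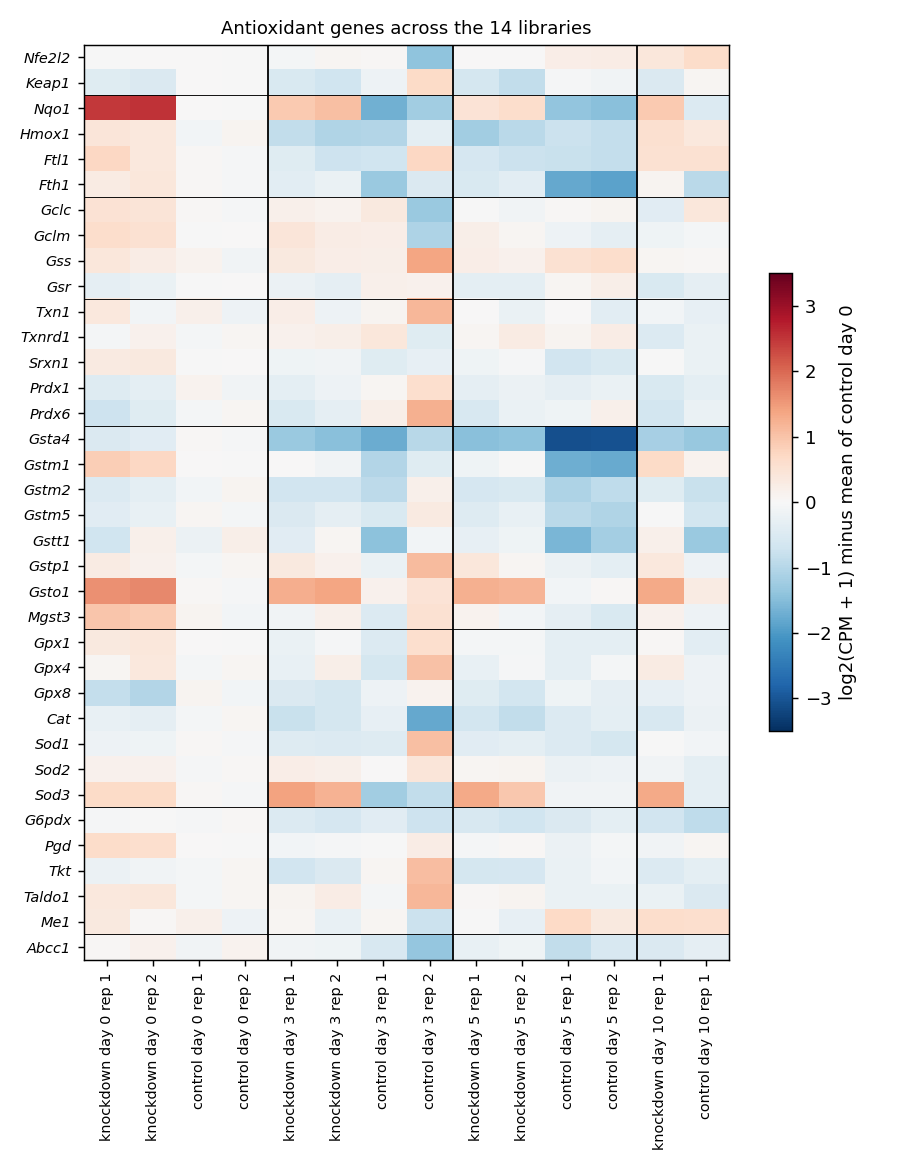
Level of 36 antioxidant genes (down the page, grouped by role) in the 14 libraries (across, libraries labelled knockdown left of control at each day), as log2(CPM + 1) minus the mean of the control libraries of day 0. Red is higher and blue lower; Nqo1 and Gsto1 are red under the knockdown label at every day, Gsta4 is darkest blue in control at day 5, and control day 3 replicate 2 differs from its neighbours in most lines.

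Levels between genes were compared per length, as RPKM in control at day 0 (means of 2 libraries). Fth1 led at 3111 RPKM, followed by Sod1 at 464, Ftl1 at 357, Gpx4 at 272 and Gpx8 at 177 RPKM. Of the other genes that differed between conditions, Gsta4 stood at 76.9, Gstm1 at 71.1, Gsto1 at 32.5 and Sod3 at 6.80 RPKM, and the control libraries of day 0 held 17.7 and 18.2 RPKM of Nqo1. The genes with differences were thus spread from the most abundant to rank 34 of 39. Below that rank no gene passed in the average over all libraries, and Mgst1 and Gpx3 were not tested. Replicates of some neighbours in this order overlapped, as for Gpx1 (96.7 and 98.5 RPKM) and Prdx1 (103 and 88.5 RPKM).

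A further list of 73 genes of the same pathways was counted beside these, 71 of them in the tables and 61 tested. Over days 0, 3 and 5, 13 were higher and 8 lower (34.4%, beside 26.9% of all genes), and without control day 3 replicate 2, 22 were higher and 9 lower (50.8%, beside 47.1% of all genes). Cbr1, a carbonyl reductase, rose by 2.59 in log2 units (SE 0.24, adjusted p = 4.51e-05), with 13.3 and 9.27 CPM in the libraries labelled knockdown and 3.01 and 1.48 CPM in control at day 5. Aldh3a1, an aldehyde dehydrogenase, rose by 1.92 (SE 0.19, adjusted p = 6.92e-05) and Aox1, an aldehyde oxidase, by 1.20 (SE 0.16, adjusted p = 0.000631). Gpx7, a peroxidase of the endoplasmic reticulum related to Gpx8, had −1.52 (SE 0.19, adjusted p = 0.000306), with 21.6 and 22.8 CPM in the libraries labelled knockdown and 55.3 and 60.5 CPM in control at day 5. For each of these 4 genes all 6 libraries labelled knockdown of days 0, 3 and 5 lay on the same side of both control libraries of their day.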

How the data were processed

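The labels' protocols describe DNase treatment, selection of polyadenylated RNA and directional libraries. The tools bcl2fastq, TopHat2 and edgeR and the build GRCm38 are named, per the submitters' processing notes, without versions or roles; the counting tool and its use of strand were not given in the sources used here. A table of read counts (24346 genes) and another of RPKM (24340 genes) were deposited by the authors, with a column for each library.

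A gene was tested if 2 or more libraries had at least 10 counts, which kept 13130 genes and left out 11216. The deposited counts were scaled by trimmed mean of M values and fitted in edgeR 4.0.16 under R 4.3.3, with a mean for each of 8 groups, robust quasi-likelihood F tests and 6 residual degrees of freedom. P-values were adjusted by Benjamini-Hochberg over all genes, with a threshold of 0.05. The fit was first run on simulated counts. These gave each gene the same dispersion in every library, so no library stood apart as control day 3 replicate 2 does. No result rests on that run. A standard error is the absolute log2 fold change over the root of F, and intervals are at the 95% level. Alternatives were limma 3.58.1 on the deposited RPKM, DESeq2 1.42.0, other filters and scaling, and leaving out each library of days 0, 3 and 5.

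The genes and lists were chosen with earlier results of these data known. Genes that passed in the average or the joint test are given in every library, and of the further list those that passed with a log2 fold change of at least 1 in size and a mean of at least 5 CPM are named. Positions are from GENCODE M21 (24181 identifiers placed), which may differ from the authors' annotation.

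Deviations from the group means of same-numbered libraries of the 2 conditions correlated at 0.234, 0.141 and 0.228 at days 0, 3 and 5. Each is over 0.1, so a fit with the replicate number, which comes from the titles, as a block was added as an alternative. That block is an effect of the number shared by all days and does not pair the libraries within a day. The main fit has no block, so it leaves these correlations out of account. The blocked value stands beside a result whose call it changes.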

Additional observations from a re-analysis of the deposited data

Results flagged for a closer look

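The difference between the libraries labelled knockdown and control varied over days 0, 3 and 5 in 2 antioxidant genes by the joint test of edgeR. For Gsta4 the adjusted p was 0.0222, with levels of 55.7 and 59.9 CPM in the libraries labelled knockdown and 80.3 and 77.1 CPM in control at day 0 and of 28.0 and 28.9 CPM in the libraries labelled knockdown and 8.43 and 8.65 CPM in control at day 5. For Sod3 the adjusted p was 0.0313, with the widest gap at day 3 (73.8 and 64.1 CPM in the libraries labelled knockdown and 11.3 and 14.4 CPM in control). In the same test with 1 library of days 0, 3 and 5 left out, other than a day 3 control, the adjusted p was 0.0641 to 0.157 for Gsta4 and 0.0564 to 0.183 for Sod3. No cause of either pattern was tested.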

How the results depend on the processing

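In the average over days 0, 3 and 5, Nqo1, Keap1, Fth1, Prdx6, Gstm1, Gsto1, Gpx8 and Sod3 passed in all 21 alternatives, Tkt in 20, Srxn1 in 19, Gsr in 18, and Gsta4 and Abcc1 in 8 each. Leaving out 1 library of days 0, 3 and 5 at a time gave 10 to 25 antioxidant genes in the average (13 with all libraries; 2392 to 7593 of all genes, 3530 with all libraries). It gave 2 to 23 at day 0 (367 to 3750 of all genes), 2 to 30 at day 3 (358 to 7706) and 5 to 22 at day 5 (337 to 4123). The joint test gave 0 to 33 (43 to 6508), day 5 against day 0 gave 1 to 19 under the knockdown label (36 to 2038) and 4 to 18 in control (329 to 4130). The highest counts came without 1 of the day 3 control libraries; without both, from days 0 and 5 only, the average gave 22 antioxidant genes and 5366 of all genes. DESeq2 gave 1469 of all genes at day 0, 12 antioxidant genes and 2804 of all genes at day 3, 1607 of all genes at day 5, and 4 and 433 in the joint test. For day 5 against day 0 it gave 8 and 612 under the knockdown label and 10 and 1684 in control. With no filter on low counts, day 3 gave 2827 of all genes, the joint test 643, and day 5 against day 0 under the knockdown label 6 antioxidant genes and 509 of all genes, where limma gave 4 antioxidant genes with either pseudocount (274 of all genes on log2(RPKM + 1) and 198 on log2(RPKM + 0.1)). The cause of these shifts was not tested. With the replicate number as a block, 15 antioxidant genes passed in the average (29.8% of all genes), 5 at day 0 (8.48%), 5 at day 3 (14.2%), 9 at day 5 (9.73%) and 2 in the joint test (1.06%), and for day 5 against day 0, 2 under the knockdown label (2.53%) and 8 in control (10.2%). It changed no call other than those given beside the results.

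Genes that turned sign in the average had not passed with all libraries. From days 0 and 5 only, log2 fold changes were −0.11 for Nfe2l2, 0.045 for Hmox1, 0.34 for Ftl1, 0.11 for Txn1, 0.0057 for Gstm2, 0.17 for Gstm5, 0.14 for Gpx4 and 0.0083 for Sod1. With 1 of those libraries left out at a time, values ran −0.087 to 0.40 for Nfe2l2, −0.18 to 0.057 for Hmox1, −0.21 to 0.27 for Ftl1, −0.39 to 0.014 for Gss, −0.30 to 0.056 for Txn1, −0.052 to 0.22 for Txnrd1, −0.28 to 0.084 for Gstm2, −0.14 to 0.15 for Gstm5, −0.045 to 0.40 for Gstp1, −0.031 to 0.33 for Gpx1, −0.26 to 0.29 for Gpx4, −0.34 to 0.19 for Cat, −0.092 to 0.32 for Taldo1 and −0.22 to 0.061 for Me1, and both ends came without a day 3 control library. With limma on log2(RPKM + 1) and on log2(RPKM + 0.1) they were 0.040 and 0.036 for Hmox1, 0.12 in both for Ftl1, 0.10 and 0.11 for Gstm5, 0.11 in both for Gpx4, 0.0034 and 0.018 for Cat, 0.028 and 0.030 for G6pdx, and 0.015 and 0.017 for Me1. Gstm2 had 0.0015 with the smaller pseudocount, and with no filter Ftl1 had 0.0098 and Gstm5 0.021. Slc7a11, Mgst1 and Gpx3 had few counts, and no fold change of them is given.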
